A study of Mus musculus with 6 samples.

Results

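The fat absorption and lipoprotein genes examined here were Fabp1, Fabp2, Apoa1, Apoa4, Apob, Mttp, Cd36, Acsl5, Dgat1 and Mogat2. They were the 10 genes, of 55487 in the count table, whose gene symbol matched this list. They were not chosen by their counts in these libraries, but earlier results of these data were known when the list was made. RNA-seq was performed on colon IECs (intestinal epithelial cells) from mice treated with DSS (dextran sodium sulphate), an agent that damages the lining of the colon. Of the 6 libraries, 3 were Nsd2 f/f, with loxP sites on both Nsd2 alleles and no Cre, and 3 were Nsd2 Vil-KO, where a Villin-Cre transgene deletes the floxed gene in intestinal epithelium. Both genotypes were on a C57BL/6J background, both were floxed and both received DSS, so there was no group without DSS and none with Cre alone. The sample titles call the Nsd2 f/f libraries WT, their genotype label is the floxed one, and the study's methods give 2 months as the age at which colitis was induced. The labels do not say that each library came from a separate animal, and p-values therefore measure only the spread between these libraries.

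Dietary fat reaches the enterocyte as fatty acids and monoacylglycerol. CD36 helps fatty acids across the membrane, FABP1 and FABP2 carry them in the cytosol, and ACSL5 couples them to coenzyme A. MOGAT2 and DGAT1 then rebuild triglyceride, MTTP loads it onto apolipoprotein B, and the particle leaves as a chylomicron carrying apolipoproteins A-I and A-IV. This work belongs mainly to the small intestine, and the colon absorbs little dietary fat.

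The libraries held 15439123 to 20350539 counted reads, of which 3876 to 5521 fell on the 10 genes. Nsd2 itself stood at 10.4 to 24.2 CPM in the Nsd2 Vil-KO libraries and at 24.6 to 51.2 CPM in the Nsd2 f/f libraries, where CPM, the unit used throughout, is the count per 1000000 reads after TMM scaling of library size. That is a log2 fold change of −1.16 (SE 0.39, unadjusted p = 0.0217, edgeR adjusted p = 0.992). The 24.6 CPM was that of Nsd2 f/f replicate 3, close to the 24.2 CPM of Nsd2 Vil-KO replicate 1. Nsd2 f/f replicates 1 and 2 stood at 47.9 and 51.2 CPM. A pair of libraries stood apart, replicate 2 of Nsd2 Vil-KO and replicate 3 of Nsd2 f/f: they held Xist transcripts at 204 and 347 CPM, against at most 0.255 CPM in the other 4 libraries, and mitochondrial genes took 19.6% of the counts in Nsd2 f/f replicate 3 against 5.51% to 9.13% elsewhere. For genes of fat handling, values without these libraries are given where a result rests on them. Epithelial markers were abundant in every library: Epcam, Cdh1, Vil1, the keratins and the claudins of that list summed to 11920 to 18156 CPM in Nsd2 f/f and to 13300 to 16495 CPM in Nsd2 Vil-KO. The 9 small intestinal absorptive cell markers summed to 263.8 to 414.0 CPM in Nsd2 f/f. In Nsd2 Vil-KO they summed to 234.0 to 276.5 CPM. Slc5a1 alone gave 181.3 to 283.6 CPM over the libraries. Sis, Lct and Treh, the disaccharidase genes of that list, did not exceed 1.80, 1.49 and 0.495 CPM.

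Per kilobase of exon, which allows levels to be compared between genes, the 10 genes spanned a wide range over the 6 libraries. Fabp2 had the highest mean level at 32.1 CPM per kilobase, followed by Acsl5 at 22.5 and Dgat1 at 17.7. Apoa1 (7.31), Apob (3.83), Fabp1 (2.19), Mogat2 (1.596) and Mttp (1.12) followed, then Apoa4 (0.602) and Cd36 (0.0322). Each neighbouring pair in this order overlapped in its range over libraries, so single steps of the order were not larger than the spread. The genes for the cytosolic carrier FABP2, the acyl-CoA ligase and the last enzyme of triglyceride synthesis were thus the high members. Those for the fatty acid transporter and apolipoprotein A-IV were the low ones, and Fabp1, for the other cytosolic carrier, lay between.

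**Figure D1:**
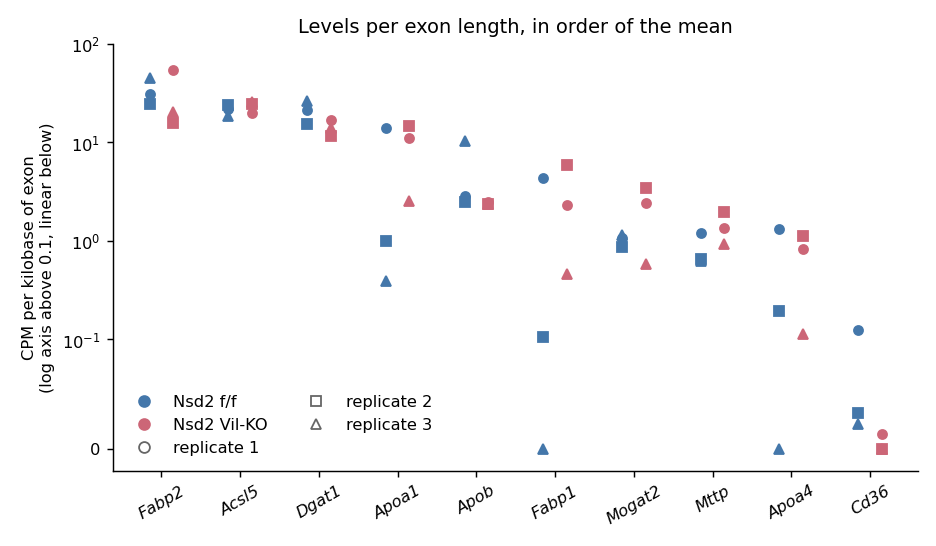
Levels of the 10 genes in CPM per kilobase of exon on an axis that is logarithmic above 0.1 and linear below it, with 1 point for each library and colours for the genotypes. Mean levels ran from 32.1 for Fabp2 down to 0.0322 for Cd36, and the ranges of neighbouring genes overlapped.

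The first question was whether loss of Nsd2 from the epithelium went with a different level of each gene, and the genes for uptake and transport within the cell came first. Cd36, the fatty acid translocase (chr5:17781690-17888801, minus strand, GRCm38), was close to undetected: 9, 2 and 1 reads for Nsd2 f/f replicates 1 to 3, and 1, 0 and 0 reads for Nsd2 Vil-KO replicates 1 to 3. Its highest level was 0.446 CPM, and 3 reads, the most that a count of 0 allows, correspond to 0.146 to 0.242 CPM depending on the library. The gene did not pass the filter on low counts and was not tested with the others. Because these are bulk libraries, fewer cells of a type and less RNA per cell cannot be told apart for Cd36 or for any gene that follows. The groups did not overlap in CPM, but Nsd2 f/f replicate 3 and Nsd2 Vil-KO replicate 1 both held 1 read. Only the scaling by library size set these libraries apart. Of all tested genes 9.9% did not overlap, and for Cd36 5 of the 6 libraries held fewer than 3 reads. The two-sided exact permutation test on log2(CPM + 1) gave p = 0.1, the smallest p that 3 against 3 libraries can give, and so could not pass a threshold of 0.05. Fitted without the filter on low counts, Cd36 had an edgeR unadjusted p = 0.0366 and an adjusted p = 0.861, and no fold is given on so few reads.

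Fabp1 encodes the liver-type fatty acid-binding protein, which is abundant in the proximal small intestine. It lies at chr6:71199827-71205023 on the plus strand. It was counted 49, 1 and 0 times for Nsd2 f/f replicates 1 to 3 (2.43, 0.0591 and 0 CPM) and 26, 59 and 5 times for Nsd2 Vil-KO replicates 1 to 3 (1.27, 3.27 and 0.255 CPM). The count of 0 in Nsd2 f/f replicate 3 allows up to 0.242 CPM. Both genotypes therefore held high and low libraries, and they overlapped. The means were 0.829 ± 1.38 CPM (SD, n = 3) for Nsd2 f/f and 1.599 ± 1.54 CPM (SD, n = 3) for Nsd2 Vil-KO. The fitted log2 fold change of Nsd2 Vil-KO over Nsd2 f/f was 0.78 (SE 1.25, 95% interval −2.17 to 3.73, edgeR adjusted p = 0.993). It was 5.27 when Nsd2 f/f replicate 1 was left out (unadjusted p = 0.0219 in that edgeR fit), and leaving out Nsd2 Vil-KO replicate 2 gave −0.27. The first of these rests on the 1 and 0 reads of the remaining Nsd2 f/f libraries and its size is therefore no bound. Thus 1 library in either genotype set the size or the sign.

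Fabp2 encodes the intestinal fatty acid-binding protein (chr3:122895072-122899506, plus strand). Unlike Fabp1 it was well expressed, at 30.1, 23.8 and 43.9 CPM for Nsd2 f/f replicates 1 to 3 and 52.7, 15.3 and 19.9 CPM for Nsd2 Vil-KO replicates 1 to 3. The highest and the lowest library were both Nsd2 Vil-KO, and the groups overlapped. The means were 32.6 ± 10.3 and 29.3 ± 20.4 CPM (SD, n = 3 each), a log2 fold change of −0.15 (SE 0.48, 95% interval −1.30 to 0.99, edgeR adjusted p = 0.998). Leaving out Nsd2 Vil-KO replicate 1 gave −0.89 (edgeR unadjusted p = 0.0375), and leaving out Nsd2 Vil-KO replicate 2, Nsd2 Vil-KO replicate 3 or Nsd2 f/f replicate 3 turned the sign, to 0.15, 0.06 and 0.12. The order of the libraries differed from that of Fabp1: Nsd2 f/f replicate 3 was the lowest of the 6 for Fabp1 and the second highest for Fabp2.

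**Figure D2:**
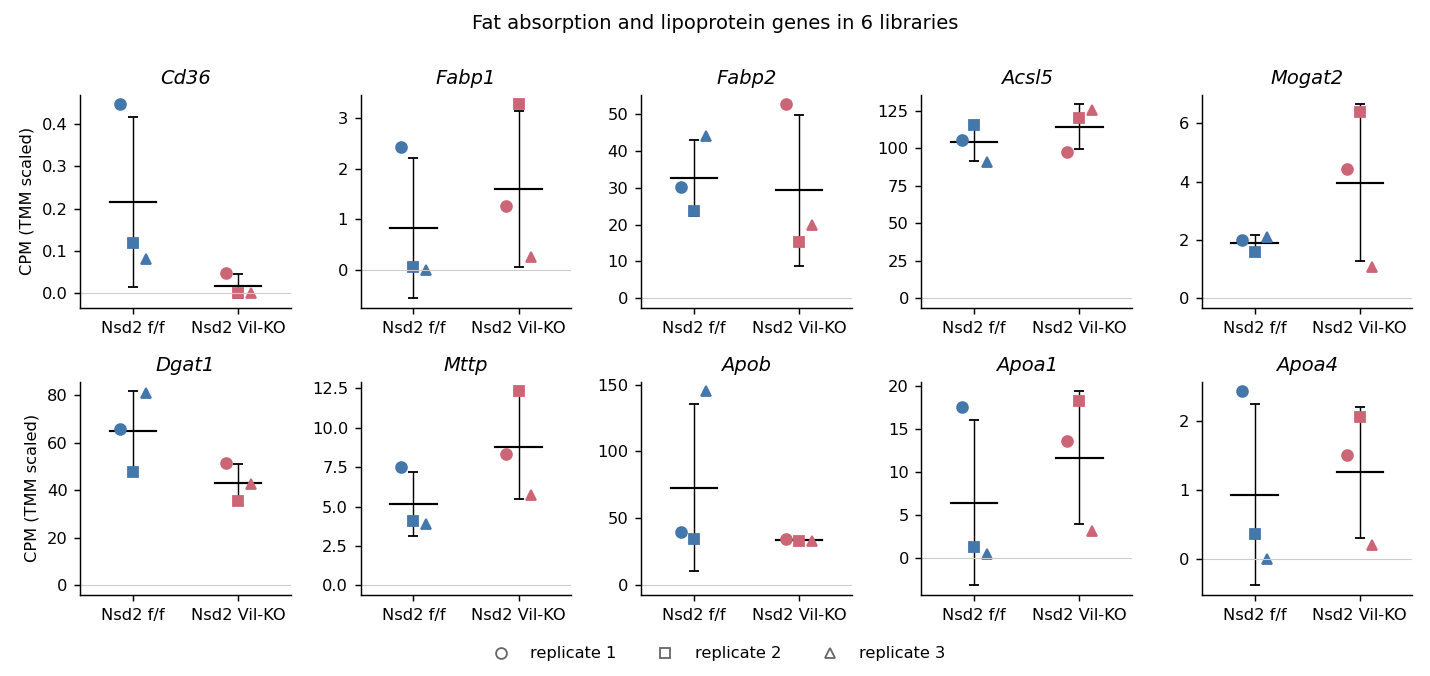
CPM of each of the 10 genes in the 3 Nsd2 f/f and 3 Nsd2 Vil-KO libraries on linear axes, with the mean as a horizontal bar and the SD as whiskers. Genotypes overlapped for 8 genes; Apob was separated by a narrow margin, and Cd36 rested on at most 9 reads per library. Of all tested genes, 9.9% did not overlap.

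Activation and triglyceride synthesis were represented by Acsl5, Mogat2 and Dgat1. Acsl5, the main long-chain acyl-CoA synthetase of enterocytes (chr19:55251938-55297720, plus strand), was the steadiest of the 10. It measured 105.6, 115.5 and 91.0 CPM for Nsd2 f/f replicates 1 to 3 and 97.3, 120.6 and 125.4 CPM for Nsd2 Vil-KO replicates 1 to 3. The libraries of the genotypes were interleaved, and the highest was 1.38 times the lowest. With means of 104.0 ± 12.4 and 114.4 ± 15.01 CPM (SD, n = 3 each), the log2 fold change was 0.14 (SE 0.19, 95% interval −0.30 to 0.57, edgeR adjusted p = 0.993). The interval leaves room for moderate change in either direction. Of the exon sequence of Acsl5, 404 bases are shared with Zdhhc6 on the opposite strand, which had 561 to 1082 reads, and the use of strand in the counting is not given in the sources used here.

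Mogat2 encodes the acyltransferase that begins triglyceride resynthesis from monoacylglycerol (chr7:99219084-99238619, minus strand). It stood at 1.98, 1.595 and 2.10 CPM for Nsd2 f/f replicates 1 to 3 and at 4.44, 6.38 and 1.07 CPM for Nsd2 Vil-KO replicates 1 to 3. Nsd2 Vil-KO replicates 1 and 2 were above every Nsd2 f/f library and Nsd2 Vil-KO replicate 3 was below them all, so the groups overlapped. The Nsd2 f/f libraries were close together (1.89 ± 0.264 CPM, SD, n = 3), and the Nsd2 Vil-KO libraries were spread widely (3.96 ± 2.68 CPM, SD, n = 3). The log2 fold change was 1.06 (SE 0.63, 95% interval −0.43 to 2.56, edgeR adjusted p = 0.992). It was 1.51 without Nsd2 Vil-KO replicate 3 (edgeR unadjusted p = 0.0132) and 0.55 without Nsd2 Vil-KO replicate 2.

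Dgat1, which encodes an enzyme adding the last fatty acid to diacylglycerol (chr15:76502015-76511953, minus strand), was the 1 gene of the list that passed the screening criterion, a fold change above 1.2 with an unadjusted p below 0.05, which 3.29% of all 14650 tested genes passed (1.65% with a lower level in Nsd2 Vil-KO). Its levels were 65.9, 47.5 and 81.1 CPM for Nsd2 f/f replicates 1 to 3 and 51.4, 35.4 and 42.8 CPM for Nsd2 Vil-KO replicates 1 to 3. Nsd2 f/f replicate 2 lay below Nsd2 Vil-KO replicate 1, so the groups overlapped. The means of 64.8 ± 16.8 and 43.2 ± 7.98 CPM (SD, n = 3 each) gave a fold of 0.667, a log2 fold change of −0.59 (SE 0.25, 95% interval −1.17 to −0.00015). The unadjusted p was 0.04996, the edgeR adjusted p was 0.992, and the two-sided exact permutation test gave p = 0.2. This call sat on the threshold and depended on the version of the edgeR fit, which was chosen after the values had been seen: the older form of the same edgeR test gave an unadjusted p = 0.0503 with the same log2 fold change of −0.59. The criterion was also missed without Nsd2 Vil-KO replicate 2 (−0.46), Nsd2 Vil-KO replicate 3 (−0.58), Nsd2 f/f replicate 1 (−0.57) or Nsd2 f/f replicate 3 (−0.39), and it was met without Nsd2 Vil-KO replicate 1 (−0.73) or Nsd2 f/f replicate 2 (−0.76). Over all alternatives the edgeR, DESeq2 and limma adjusted p for Dgat1 ranged from 0.607 to 0.9999.

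Lipoprotein assembly begins with Mttp, the microsomal triglyceride transfer protein (chr3:138089854-138144968, minus strand). It was counted at 7.53, 4.08 and 3.88 CPM for Nsd2 f/f replicates 1 to 3 and at 8.34, 12.3 and 5.72 CPM for Nsd2 Vil-KO replicates 1 to 3. The highest 2 libraries were Nsd2 Vil-KO and the lowest 2 were Nsd2 f/f, with an overlap between Nsd2 f/f replicate 1 and Nsd2 Vil-KO replicate 3. The means were 5.16 ± 2.05 and 8.79 ± 3.32 CPM (SD, n = 3 each), a log2 fold change of 0.75 (SE 0.42, 95% interval −0.24 to 1.75, edgeR adjusted p = 0.992). Without Nsd2 f/f replicate 1 it was 1.14 (edgeR unadjusted p = 0.0470), and it was 0.43 when Nsd2 Vil-KO replicate 2 was left out. Mttp shares exon bases with opposite-strand genes, of which Trmt10a had 51 to 131 reads. The overlaps with each of these genes add up to 589 bases.

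Apob, the structural protein of the chylomicron (chr12:7977648-8016835, plus strand), had the most uneven distribution among the well-expressed members. Nsd2 f/f replicates 1 to 3 gave 39.6, 34.7 and 144.9 CPM, and Nsd2 Vil-KO replicates 1 to 3 gave 34.5, 33.3 and 32.9 CPM. All 3 Nsd2 Vil-KO libraries lay below all 3 Nsd2 f/f libraries, but apart from Nsd2 f/f replicate 3 the 5 libraries spanned 32.9 to 39.6 CPM. Of all 14650 genes tested, 9.9% did not overlap between the genotypes (4.7% lower and 5.21% higher in Nsd2 Vil-KO), and Apob was the 1 of the 9 tested members that did not. The means were 73.1 ± 62.3 and 33.6 ± 0.797 CPM (SD, n = 3 each), a log2 fold change of −1.12 (SE 0.54, 95% interval −2.38 to 0.14, edgeR unadjusted p = 0.0746, adjusted p = 0.992, two-sided exact permutation p = 0.1). Without Nsd2 f/f replicate 3 it was −0.14, and without Nsd2 f/f replicate 1 or 2 it was −1.42 or −1.46 with edgeR unadjusted p of 0.0345 and 0.0255. With scaling to total reads only, or to the epithelial markers, the groups overlapped.

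Apob and Mttp, whose products work together, did not vary together. Per kilobase, the ratio of Apob to Mttp was 2.34, 3.80 and 16.6 for Nsd2 f/f replicates 1 to 3 and 1.84, 1.204 and 2.56 for Nsd2 Vil-KO replicates 1 to 3. Nsd2 f/f replicate 3, the highest library for Apob, was the lowest for Mttp. That library also had the highest sum of the colon absorptive cell markers, with 10718 CPM against 5287 to 7079 CPM in the other 5. Its sum of the small intestinal absorptive cell markers was likewise highest, with 414.0 CPM against 234.0 to 299.1 CPM. Singly, Krt20, Ceacam1 and Ms4a12 of the colon list were not highest there. Neither were Sis, Lct, Alpi, Treh, Slc2a2 and Dpp4 of the small intestinal list. The trait was not particular to absorptive cells, as the epithelial, goblet cell and distal colon sums were also highest in that library. The sums for macrophages, neutrophils, T cells, B and plasma cells, endothelium and fibroblasts were not. The part of these cell types in the Apob value was not tested.

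Apoa1, the main protein of high-density lipoprotein (chr9:46228580-46230466, plus strand), and Apoa4, an apolipoprotein of chylomicrons that rises with fat feeding (chr9:46240696-46243459, plus strand), are neighbours in the apolipoprotein cluster of chromosome 9. Together with Fabp1 they had a like order of libraries. The promoters of these 3 genes are shown to set their sequence beside that shared pattern. They come from RefSeq on GRCm38.p6, which held promoters of 8 of the 10 genes, and each runs from 250 bases before to 50 bases after the start site on the plus strand. Capitals mark the TATA element TATAAA in Fabp1 (chr6:71199629-71199928) and a match to the HNF4-type motif CAAAGTNCA in Apoa4 (chr9:46240594-46240893). No searched motif matched in Apoa1 (chr9:46228380-46228679).
Fabp1: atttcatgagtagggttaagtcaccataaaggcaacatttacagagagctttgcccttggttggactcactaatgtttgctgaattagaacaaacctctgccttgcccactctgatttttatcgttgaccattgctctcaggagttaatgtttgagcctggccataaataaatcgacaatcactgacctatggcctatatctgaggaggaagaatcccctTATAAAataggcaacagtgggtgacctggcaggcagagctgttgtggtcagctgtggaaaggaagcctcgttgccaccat
Apoa1: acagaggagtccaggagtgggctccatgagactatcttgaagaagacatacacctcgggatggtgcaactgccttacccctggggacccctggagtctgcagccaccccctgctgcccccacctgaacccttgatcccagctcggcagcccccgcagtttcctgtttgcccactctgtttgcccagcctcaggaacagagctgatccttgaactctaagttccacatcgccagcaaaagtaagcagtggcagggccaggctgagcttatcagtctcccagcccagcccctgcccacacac
Apoa4: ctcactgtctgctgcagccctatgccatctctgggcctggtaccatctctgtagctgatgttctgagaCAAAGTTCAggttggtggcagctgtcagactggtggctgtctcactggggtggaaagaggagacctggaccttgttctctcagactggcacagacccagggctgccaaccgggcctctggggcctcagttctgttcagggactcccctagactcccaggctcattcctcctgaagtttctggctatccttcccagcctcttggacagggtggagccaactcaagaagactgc
On either strand, CAAAGTNCA was found in 1.41% of 32851 RefSeq promoters of this length, and among the 8 promoters in those of Apoa4 (182 to 174 bases upstream) and Fabp2 (137 to 129 bases upstream, minus strand). TATAAA was found in 13.6% of promoters, and among the 8 in those of Fabp1 (30 to 25 bases upstream) and Apob (60 to 55 bases upstream). The palindromic HNF1 motif was found in 3 promoters, none of them of a member. The 3 sequences thus held no searched motif in common.

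Apoa1 was counted 354, 21 and 6 times for Nsd2 f/f replicates 1 to 3 (17.5, 1.24 and 0.485 CPM) and 279, 328 and 61 times for Nsd2 Vil-KO replicates 1 to 3 (13.6, 18.2 and 3.12 CPM). The highest library was 37.5 times the lowest, the widest range among the members with reads in every library, and both genotypes contributed to the high and to the low libraries. The means were 6.42 ± 9.64 and 11.6 ± 7.73 CPM (SD, n = 3 each), a log2 fold change of 0.82 (SE 1.16, 95% interval −1.92 to 3.57, edgeR adjusted p = 0.993). Without Nsd2 f/f replicate 1 it was 3.69 (edgeR unadjusted p = 0.00662). Without that pair of libraries (Vil-KO replicate 2, f/f replicate 3) it was −0.19.

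Apoa4 was scarcer, with 49, 6 and 0 reads for Nsd2 f/f replicates 1 to 3 (2.43, 0.355 and 0 CPM) and 31, 37 and 4 reads for Nsd2 Vil-KO replicates 1 to 3 (1.51, 2.05 and 0.204 CPM). The groups overlapped. The means were 0.927 ± 1.31 and 1.26 ± 0.950 CPM (SD, n = 3 each), a log2 fold change of 0.30 (SE 1.10, 95% interval −2.30 to 2.90, edgeR adjusted p = 0.999). Leaving out single libraries moved it between 2.60, when Nsd2 f/f replicate 1 was absent, and −0.24, when Nsd2 Vil-KO replicate 2 was absent, and it was also below 0 without Nsd2 f/f replicate 2 or 3, at −0.08 and −0.20. Its 1815 exon bases overlap Gm47528 and Gm10680 on the opposite strand, which had at most 3 reads. The overlaps with each of these genes add up to 1266 bases, where a base opposite both would count for each.

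The summed level of Fabp1, Apoa1 and Apoa4 was 22.4, 1.65 and 0.485 CPM for Nsd2 f/f replicates 1 to 3 and 16.4, 23.5 and 3.58 CPM for Nsd2 Vil-KO replicates 1 to 3. These 3 genes were grouped after their values had been seen, so the pattern is a description. Fabp1 and Apoa1 ranked the 6 libraries identically, with Nsd2 Vil-KO replicate 2 first, then Nsd2 f/f replicate 1 and Nsd2 Vil-KO replicate 1, and Apoa4 had the same 3 libraries on top. Mttp also had these 3 libraries on top. Nsd2 f/f replicate 1 was the only Nsd2 f/f library among these 3, and the fitted values without it are those given above for each gene.

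The summed level of the neutrophil markers S100a8, S100a9, Csf3r, Cxcr2 and Retnlg had the same 3 libraries on top, with 646.8, 92.4 and 9.45 CPM for Nsd2 f/f replicates 1 to 3 and 99.9, 997.6 and 34.7 CPM for Nsd2 Vil-KO replicates 1 to 3. No other cell type list had these 3 libraries on top by its sum, so the neutrophil list is the single match among several. In Nsd2 Vil-KO replicate 2 the sum came mostly from S100a8 and S100a9, at 573.9 and 404.9 CPM. Singly, 3 of the 5 markers had these libraries on top, while S100a8 and Csf3r did not, and Csf3r was lowest of all in Nsd2 Vil-KO replicate 2. All 5 were in the table, and Cxcr2 was at 0 reads in Nsd2 f/f replicate 3. Of the 9 small intestinal absorptive cell markers, 2 (Sis and Slc2a2) had those 3 libraries on top and 7 did not. Rbp2 and Enpep of that list were highest in Nsd2 f/f replicate 3, at 58.7 and 23.2 CPM, as was the sum of the list. Fibroblast markers (5 of 5 in the table) ranged from 5.57 to 259.6 CPM in Nsd2 f/f and from 4.94 to 68.6 CPM in Nsd2 Vil-KO. Of the 5 adipocyte markers, Adipoq and Lep were at 0 in every library and none exceeded 5 reads. The part of these cell types in the levels of Fabp1, Apoa1 and Apoa4 was not tested.

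**Figure D3:**
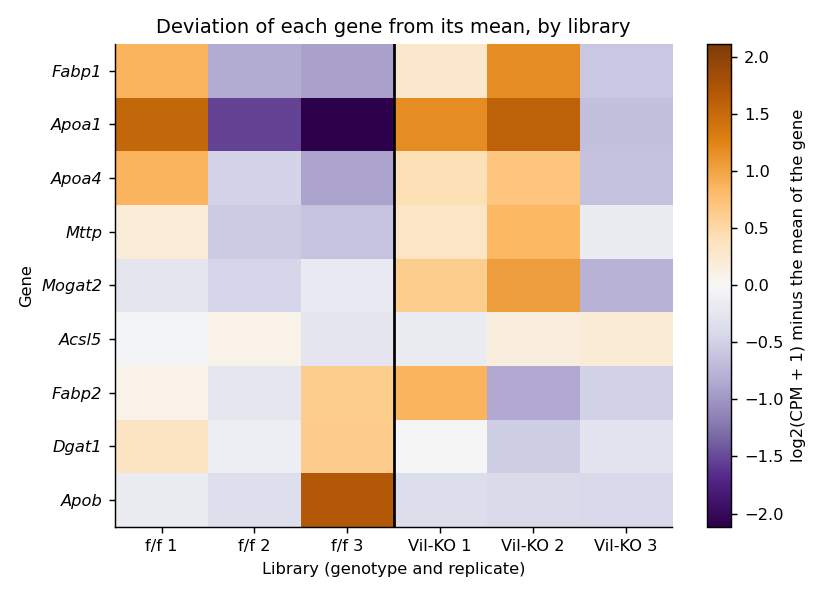
Each gene's CPM in the 6 libraries relative to its own mean on a log2(CPM + 1) scale, 1 column for each library. Fabp1, Apoa1, Apoa4 and Mttp had the same 3 libraries on top, with summed levels of Fabp1, Apoa1 and Apoa4 of 16.4 to 23.5 CPM there, while Apob and Dgat1 were highest in Nsd2 f/f replicate 3.

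Over the list, 9 of the 10 genes were tested, of which 6 had a fitted value above 0 and 3 below. One passed the screening criterion, Dgat1, with a lower level in Nsd2 Vil-KO, beside the 3.29% of all tested genes (1.64% higher and 1.65% lower), so that 1 of 9 is a single gene and no share of the list can be read from it. None had an edgeR adjusted p below 0.05, beside 0% of all tested genes, and the number at an unadjusted p below 0.05 was 1. DESeq2 and limma-voom gave 0 of these genes at an adjusted p below 0.05 as well, and DESeq2 gave 4 of all genes. The median log2 fold change of the 9 was 0.30, against 0.0012 over all tested genes, and it was −0.13 without Vil-KO replicate 2 plus f/f replicate 3. It was 1.11 without Nsd2 f/f replicate 1, and 4 members then passed the criterion, Fabp1, Apoa1 and Mttp with a higher and Apob with a lower level in Nsd2 Vil-KO, beside 3.12% of all genes tested in that fit. The intervals of the 9 genes were wide except for Acsl5 and Dgat1, and a missed threshold does not show that a gene had equal levels in the genotypes.

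**Figure D4:**
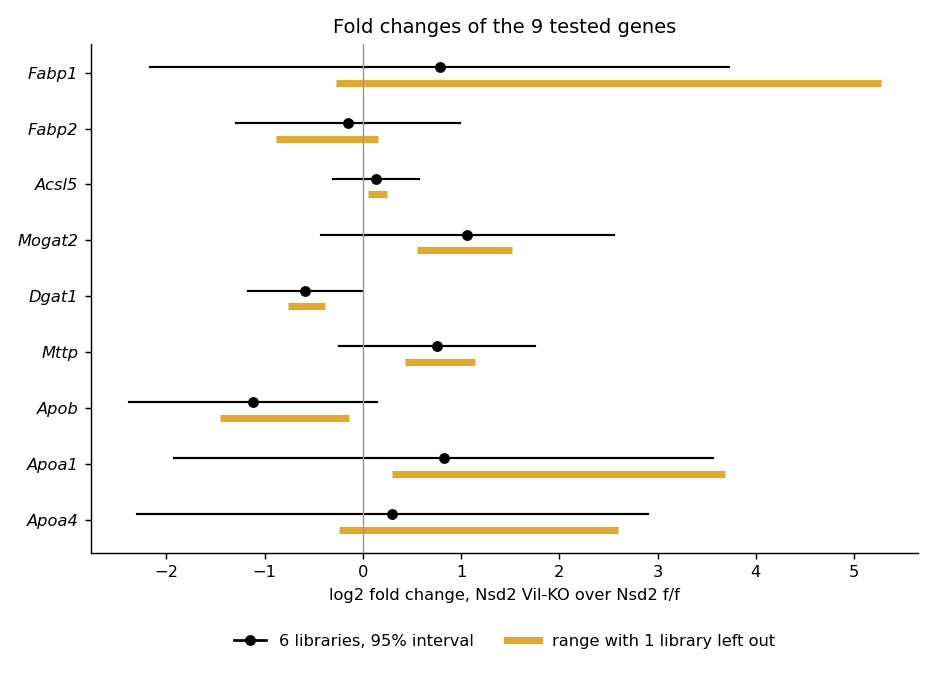
Log2 fold change of Nsd2 Vil-KO over Nsd2 f/f for the 9 tested genes, with points for the fit to 6 libraries, black lines for its 95% interval and yellow lines for the range with 1 library left out. Values ran from −1.12 (Apob) to 1.06 (Mogat2), and the range for Fabp1 reached from −0.27 to 5.27.

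The other genes of fat handling were taken from 6 lists with 83 genes, of which 72 were tested. None passed the screening criterion in either direction in edgeR, the smallest unadjusted p being 0.0525, and none had an adjusted p below 0.05. DESeq2 gave 3 with a lower level past the criterion, where 4.32% of all genes passed in either direction, and limma-voom 3 higher and 2 lower, where 9.7% of all genes passed. Fitted values were above 0 for 43 and below 0 for 29, with a median of 0.05. They ranged from −2.27 to 1.95 on the log2 scale.

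Of the other genes for fatty acid uptake, binding and activation, 10 were tested, 4 with values above 0 and 6 below (median −0.07). Dbi, the acyl-CoA-binding protein, had the highest level of them at 309.1 ± 75.9 CPM in Nsd2 f/f and 306.8 ± 63.5 CPM in Nsd2 Vil-KO (SD, n = 3 each), a log2 fold change of −0.01 (SE 0.26). Acsl3, an acyl-CoA synthetase of the endoplasmic reticulum and lipid droplets, did not overlap between the genotypes, at 131.5, 124.4 and 132.4 CPM for Nsd2 f/f replicates 1 to 3 and 99.1, 110.1 and 89.0 CPM for Nsd2 Vil-KO replicates 1 to 3. Its log2 fold change was −0.38 (SE 0.16, edgeR unadjusted p = 0.0525, adjusted p = 0.992, two-sided exact permutation p = 0.1). It passed the criterion in DESeq2, in limma-voom and with a filter of 10 reads in each library. Acsl4, its relative with a preference for arachidonic acid, was named after its values were seen as the only other gene of the 72 without overlap (2 of 72, beside 9.9% of all tested genes), at 18.4 to 21.2 CPM in Nsd2 f/f and 10.8 to 15.7 CPM in Nsd2 Vil-KO (log2 fold change −0.51, SE 0.23, edgeR unadjusted p = 0.0637). Acsl5, of the same enzyme family, had a value of 0.14, and differences between these fold changes were not tested.

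In triglyceride synthesis, 12 other genes were tested, 7 with values above 0 and 5 below (median 0.05). Agpat1 and Agpat2, which make phosphatidic acid, had log2 fold changes of −0.18 (SE 0.21) and 0.12 (SE 0.19) at mean levels of 197.1 and 103.3 CPM. Of the other genes for lipoprotein assembly and apolipoproteins, 18 were tested, 14 with values above 0 and 4 below (median 0.14). The most abundant were P4hb, the protein disulphide isomerase that pairs with MTTP, with 0.26 (SE 0.26), and Surf4, a cargo receptor for lipoproteins leaving the endoplasmic reticulum, with 0.24 (SE 0.26). Neither differed beyond the spread between libraries.

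Lipid droplet storage and lipolysis had 13 tested genes, 8 above 0 and 5 below (median 0.17). Pnpla2, the adipose triglyceride lipase, gave 0.19 (SE 0.41) and Plin2, a coat protein of droplets, −0.23 (SE 0.38). Of 7 tested genes for sterol uptake and efflux, 5 were above 0 and 2 below (median 0.19), with 0.28 (SE 0.47) for Lrp1, an endocytic receptor for lipoprotein remnants. Of 12 tested regulators, 5 were above 0 and 7 below (median −0.03). Hnf4a, a nuclear receptor that controls many apolipoprotein genes, stood at 692.9 ± 139.0 CPM in Nsd2 f/f and 630.7 ± 213.3 CPM in Nsd2 Vil-KO (SD, n = 3 each; log2 fold change −0.14, SE 0.32), and Ppard, which responds to fatty acids, gave −0.02 (SE 0.25).

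**Figure D5:**
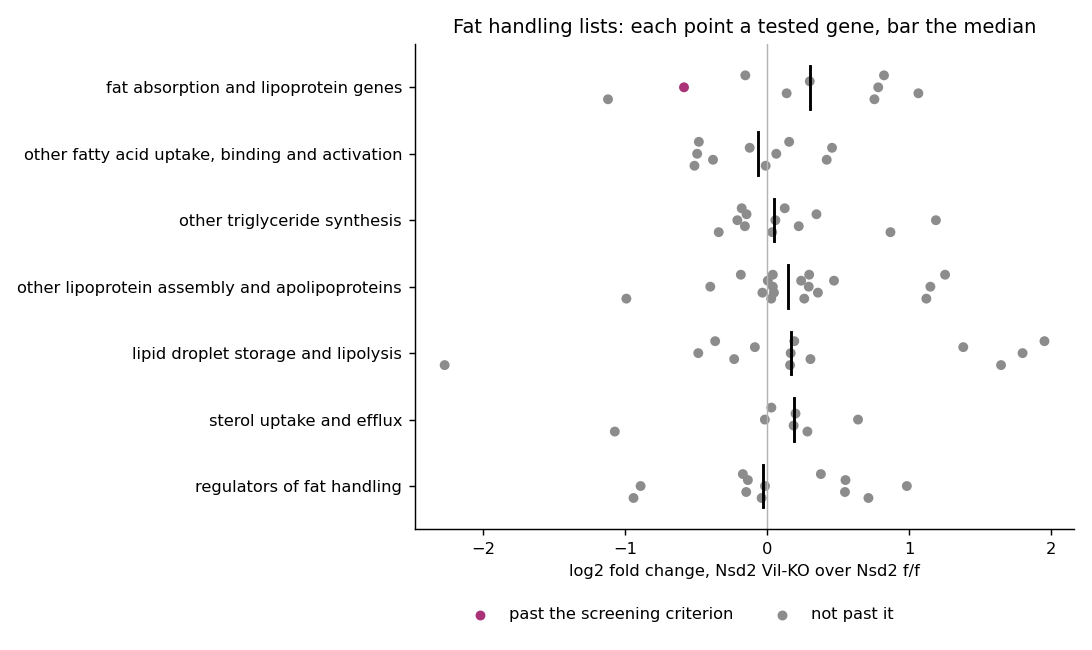
Log2 fold change of Nsd2 Vil-KO over Nsd2 f/f for the tested genes of the 10 and of the 6 other fat handling lists, with 1 point for each gene and a bar for the list median. Dgat1 is the single point past the screening criterion, and list medians lay between −0.07 and 0.30.

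The genes most like the members across libraries were sought among 9234 others with a mean of at least 10 CPM. By Pearson r over the 6 libraries with the mean standardised profile of the 9 tested members, they were Dolk (r = 0.987), Mecom (0.976), Tfdp2 (0.961), Snx20 (0.955) and C9orf72 (0.939). For the mean profile of Fabp1, Apoa1 and Apoa4 alone they were Fbxl5 (0.995), Pea15a (0.985), Slc3a2 (0.978), C9orf72 (0.959) and Mecom (0.954). These values describe 6 points that share depth and cell content, picked as the highest of many, and carry no test. Levels of Fbxl5 ran from 65.8 to 127.2 CPM, a far narrower range than that of Apoa1.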

How the data were processed

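RNA-seq libraries of colon IECs were assigned to genotype and replicate from the sample labels. The file the authors deposited holds raw counts, as whole numbers for each Ensembl gene identifier, without normalisation. According to the methods, polyA RNA was sequenced as directional paired-end libraries, trimmed with Cutadapt and Trimmomatic and aligned to GRCm38 with HISAT2. The labels name another library kit. Which program counted the reads, and whether by strand, is not given in the sources used here, so opposite-strand overlaps can share reads.

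The analysis used edgeR 4.0.16 under R 4.3.3. Genes passing filterByExpr by genotype (14650) were TMM-normalised and compared by the robust quasi-likelihood test without covariates, two-sided, with Benjamini-Hochberg adjustment over all tested genes. The newer form of the quasi-likelihood fit (without the legacy option) was adopted after values had been seen, because it matched an earlier analysis of these data, and it is the form under which Dgat1 has a p just below 0.05. The screening criterion (fold change above 1.2, unadjusted p below 0.05) is from the study's results and an adjusted p below 0.05 from its methods. Intervals of 95% use the fitted SE. Single genes were also compared by exact permutation over 20 assignments of 6 libraries on log2(CPM + 1), with a smallest p of 0.1. Floors of 3 counts cover counting error only. The test was tried on simulated counts.

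Members and lists were chosen with earlier results of these data known. All 10 members were named, from each list the genes past the criterion or otherwise the 2 with the highest mean CPM, and the 5 genes most like the mean member profile. A gene that this rule names is not reported here. Coordinates and exon lengths came from GENCODE on GRCm38 and promoters from RefSeq on GRCm38.p6. Alternatives covered scaling, filters, DESeq2 1.42.0, limma 3.58.1 (voom with quality weights), a replicate block, libraries left out and the legacy edgeR fit, which was chosen after seeing the data. Every one of the 6 columns was used.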

Additional observations from a re-analysis of the deposited data

How the results depend on the processing

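Dgat1 stayed below 0 under every alternative and lost its call with scaling to library size only (−0.48), scaling to epithelial markers (−0.59), mitochondrial genes left out (−0.58), at least 10 counts in each library (−0.58), DESeq2 (−0.59), limma-voom (−0.28), the replicate block (−0.57), the 4 libraries left without Vil-KO replicate 2 plus f/f replicate 3 (−0.26) and the legacy edgeR fit (−0.59). The unadjusted p of edgeR, DESeq2 or limma-voom then lay between 0.0502 and 0.214. It kept the call with RLE size factors and with no filter on low counts. Apob passed with scaling to epithelial markers (−1.01, edgeR unadjusted p = 0.0449) and in DESeq2 (−1.13, unadjusted p = 0.0447). Fabp2 and Apoa4 turned sign in limma-voom (0.15 and −0.43), and Fabp1, Fabp2, Apoa1 and Apoa4 in the 4 libraries (−0.77, 0.44, −0.19 and −0.73). The causes were not tested.

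Of the members, 0 passed the criterion with library size only, mitochondrial genes left out, 10 counts in each library, limma-voom, the replicate block, the 4 libraries or the legacy fit, and 2 (Cd36 and Dgat1) with no filter, where 3.27% of all genes passed. The 1 that passed was Apob instead of Dgat1 in DESeq2 and with scaling to epithelial markers, where 4.32% and 2.42% of all genes passed. No tested member was without overlap (0) under scaling to library size or to epithelial markers, and Cd36, which was not tested, is not in this count. The median of the members was −0.0047 under the filter of 10 counts in each library, where fewer members were tested.

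Among all genes, 482 passed, against 863 without a filter, 1421 in limma-voom, 303 with the replicate block and 1646 in the 4 libraries, and 4 reached an adjusted p below 0.05 in DESeq2. Scaling to epithelial markers split the calls into 103 higher and 251 lower, against 240 and 242. Of the pathway genes, 2 higher passed with library size only, where 2.61% of all genes passed in either direction. The share of all genes is given in brackets for the other settings. Without a filter, 2 higher and 1 lower passed (3.27%), and 1 lower passed with epithelial scaling (2.42%). With 10 counts in each library 1 lower passed (3.21%), and in DESeq2 3 lower (4.32%). In limma-voom 3 higher and 2 lower passed (9.7%), and in the 4 libraries 5 higher and 1 lower (11%).

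With 1 library left out, log2 fold changes ranged from −0.27 to 5.27 for Fabp1, −0.89 to 0.15 for Fabp2, 0.30 to 3.69 for Apoa1, −0.24 to 2.60 for Apoa4, −1.46 to −0.14 for Apob, 0.43 to 1.14 for Mttp, 0.05 to 0.24 for Acsl5, −0.76 to −0.39 for Dgat1 and 0.55 to 1.51 for Mogat2. The members past the criterion then numbered 0 to 4 and their median was 0.10 to 1.11. All genes past it numbered 322 to 770, or 2.13% to 5.09% of those tested, and pathway genes 0 to 7 higher and 0 to 3 lower. The 7 higher were found without Nsd2 Vil-KO replicate 3, where the calls among all genes were 344 higher and 169 lower. A lone pair of libraries in a genotype was assumed to vary like the other genotype.

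Whether the replicate numbers mark pairs of libraries could not be decided. Deviations from the genotype means correlated at 0.287, −0.376 and −0.174 for numbers 1 to 3. Only replicate 1 of Nsd2 Vil-KO correlated best with its own number. Deviations of 3 libraries cancel within each genotype, so correlations of both signs must occur and cannot exclude pairs. With the replicate block, the count of calls moved from 482 to 303. Cd36, Fabp1 and Apoa4 rest on few reads, and depth limits what can be said of them.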

Other observations

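Several lipid droplet and triglyceride genes outside the 10 were highest in Nsd2 Vil-KO replicate 2. They were picked after their values were seen, and no test supports the choice. Other droplet genes were highest elsewhere: Plin2, Cideb, Abhd5 and Lipe in Nsd2 f/f replicate 3 and G0s2 in Nsd2 f/f replicate 1. The share of all genes that were highest in Nsd2 Vil-KO replicate 2 was not counted. Dgat2, which encodes the second enzyme able to finish triglyceride synthesis, stood at 254.6 CPM in Nsd2 Vil-KO replicate 2 and at 40.8 to 104.7 CPM in the other 5 libraries. Its ratio to Dgat1 per kilobase was 7.12 in that library and 0.534 to 2.02 in the others. Cidec, which promotes droplet fusion, stood at 25.1 CPM there against 0.920 to 3.07 CPM, and Hsd17b13, a droplet-associated enzyme, at 14.4 CPM against 1.04 to 3.85 CPM. Mgll, the monoacylglycerol lipase, stood at 34.3 CPM there against 2.07 to 12.1 CPM.

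None of Dgat2, Cidec, Hsd17b13 and Mgll passed the screening criterion over the 6 libraries in edgeR. Their log2 fold changes were 1.19 (SE 0.62, unadjusted p = 0.0946) for Dgat2, 1.95 (SE 1.11, unadjusted p = 0.122) for Cidec, 1.80 (SE 0.94, unadjusted p = 0.0977) for Hsd17b13 and 1.65 (SE 0.99, unadjusted p = 0.141) for Mgll. Without Nsd2 Vil-KO replicate 2 none of the 4 passed in edgeR, and their values were 0.31 for Dgat2, −0.48 for Cidec, 0.46 for Hsd17b13 and 0.53 for Mgll, so that Cidec turned sign. Without Nsd2 Vil-KO replicate 3, the library with the lowest Dgat2 and Cidec levels, all 4 passed with values of 1.62, 2.49, 2.30 and 2.14. In that fit 3.39% of all genes passed, 344 with a higher and 169 with a lower level in Nsd2 Vil-KO. Because the 4 were picked for their high level in Nsd2 Vil-KO replicate 2, these calls lend the choice no support. Mgll also passed without Nsd2 f/f replicate 3, with 2.95, where 3.38% of all genes passed. No other library left out gave a call for any of the 4.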
